A study of Mus musculus with 25 samples.

Results

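Tunicamycin-injected mouse retina was compared with vehicle-injected retina over 10 of the 25 bulk RNA sequencing libraries of the study. The 10 libraries were the 5 labelled tunicamycin and the 5 vehicle libraries whose table listed the same genes, here called the vehicle. Both tables listed 19102 genes, and 12779 of them were tested, those that reached 1 FPKM in 5 or more of the 10 libraries. FPKM counts sequenced fragments relative to the length of the transcript and to the total of the library.

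The study asked how the retina responds to compounds directed at the ER stress sensor ATF6, with tunicamycin as the positive control. All mice were wild-type C57BL/6J, injected into the vitreous of both eyes at postnatal day 30. Tunicamycin was given at 10 µM in 1 µL of saline with 0.05 to 0.1% dimethyl sulfoxide. The vehicle group received 1 µL of the same saline per the protocol, although its treatment label reads PBS. The tunicamycin columns carry a collection time of 24 h and the vehicle columns carry no time, so time and compound cannot be told apart. Cornea and lens were removed before the retina was taken. Nothing in the labels says that the libraries came from separate animals, so the spread behind each p-value is that between libraries and may be technical in part.

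Tunicamycin blocks the enzyme that makes the first dolichol-linked sugar used for N-glycosylation, so that glycoproteins fail to fold in the endoplasmic reticulum (ER). The ER answers through 3 sensors. ATF6 and IRE1-XBP1 raise chaperones, folding enzymes, translocation and degradation machinery, and PERK raises ATF4 and CHOP with genes of amino acid supply. In the retina, the inner vessels are lined by barrier-forming endothelium wrapped by pericytes, and the pigment epithelium forms the outer barrier.

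The libraries held an estimated 17.7 to 24.0 M (mega) fragments, and 12635 to 12871 genes per library reached 1 FPKM. Defining genes of the retina were present, since all 27 listed genes of rod phototransduction and 15 of 16 of cone phototransduction passed the level minimum. Cd3e, a T cell gene, was at 0 in all tunicamycin libraries and at most 0.04 FPKM in the vehicle. Cryaa, a lens crystallin, varied within both groups. It stood at 6234, 2656, 0.97, 52.0 and 2737 FPKM in tunicamycin libraries 1 to 5 and at 2422, 645, 2.92, 711 and 11.3 FPKM in vehicle libraries 1 to 5. The first principal component of the 10 libraries carried 44.0% of the variance, and tunicamycin libraries 1 and 3 lay at its opposite ends, at 35.4 and -22.3.

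Genes of the Y chromosome split the vehicle group. Ddx3y, a Y-linked helicase, was at 9.84 to 17.0 FPKM in the 5 tunicamycin libraries, at 16.3 FPKM in vehicle library 5 and at 0 in the other 4 vehicle libraries. Kdm6a, an X-linked gene, was at 16.6 to 17.7 FPKM in those 4 libraries. It was at 10.7 FPKM in vehicle library 5 and at 9.82 to 12.1 FPKM after tunicamycin. Apart from vehicle library 5, the sex that these genes mark went with the compound, so sex and compound cannot be told apart. All 5 libraries of the study's other vehicle set held Ddx3y. The table of that set lists 18676 genes, and 18440 genes are found in all 5 tables of the study. Differences from that set and from library 5 alone are therefore given at the end of the results.

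**Figure D1:**
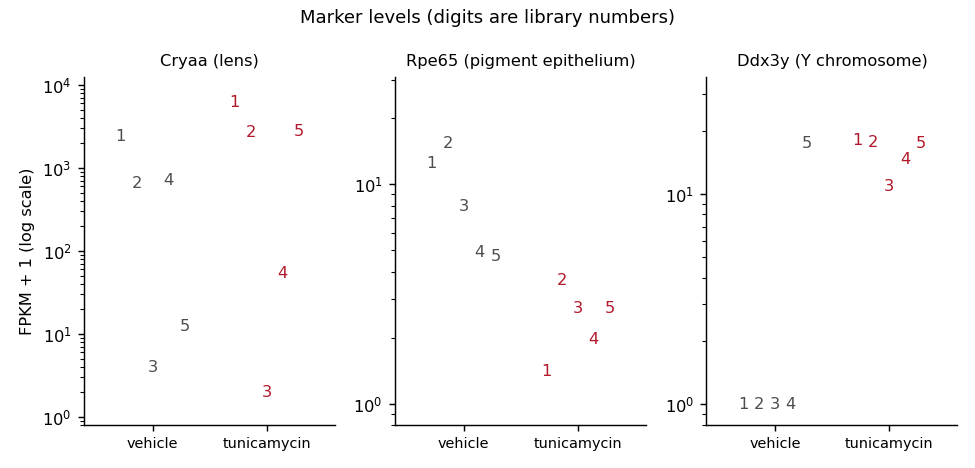
FPKM + 1 on a log scale for Cryaa, Rpe65 and Ddx3y in the 5 vehicle and 5 tunicamycin libraries, each drawn as its library number. Cryaa spread widely within both, Rpe65 was lower in every tunicamycin library, and Ddx3y was at 0 in vehicle libraries 1 to 4.

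Across all genes, 29 were higher and 45 lower after tunicamycin at a Benjamini-Hochberg adjusted p under 0.05 (limma on log2(FPKM + 1)), which is 0.227% and 0.352% of the genes tested, or 0.579% in both directions. All 74 had groups that did not overlap. Non-overlapping groups were more frequent than calls, with 364 genes (2.85%) above the vehicle in every library and 150 genes (1.17%) below it. At an unadjusted p under 0.05 there were 1934 genes. The median change of all genes was 0.01 on the log2 scale. The total was 246 without tunicamycin library 3, and the count of higher genes moved most, to 65 and 165 without tunicamycin libraries 1 and 3, and to 18, 16, 19 and 17 without tunicamycin libraries 4 and 5 and vehicle libraries 1 and 3. The count of lower genes reached 81 without tunicamycin library 3. The calls were of 4 main kinds. Genes of blood vessels and their pericytes moved in both directions, ER and early secretory genes rose, and genes of the pigment epithelium and of lipid synthesis fell. Vascular lists, with 97 tested genes, held 11 of the 29 higher and 19 of the 45 lower genes. Some called genes were under 1 FPKM in every library of a group and entered the test through the other group, and without such genes the vascular lists held 9 of 26 higher and 15 of 34 lower genes. The ER and Golgi lists, with 211 tested genes, held 6 of the higher and 0 of the lower genes. These lists were put together with earlier results of these libraries known, so their shares are a description.

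**Figure D2:**
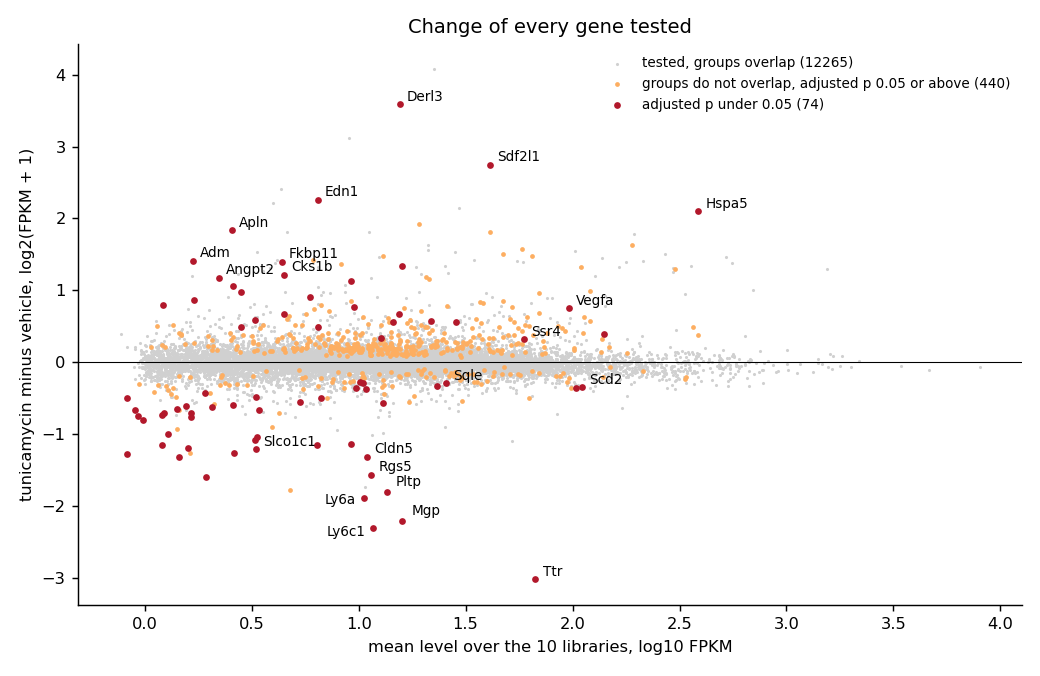
Mean level (log10 FPKM, horizontal) against the tunicamycin minus vehicle change in log2(FPKM + 1) for the 12779 genes tested. Red points are the 74 genes with an adjusted p under 0.05, and orange points are the 440 further genes whose groups did not overlap.

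The vascular gene with the lowest p was Edn1, which encodes the vasoconstrictor endothelin-1 and rose. Edn1 stood at 9.19, 12.6, 11.01, 12.9 and 10.8 FPKM in tunicamycin libraries 1 to 5 and at 1.80, 1.65, 1.36, 1.79 and 1.2 FPKM in vehicle libraries 1 to 5. Every tunicamycin library was thus far above every vehicle library, and the tunicamycin values lay close together. The means were 11.3 ± 1.51 and 1.56 ± 0.268 FPKM (SD, n = 5 each), a 7.25-fold difference, with a log2 change of 2.26 ± 0.10 (SE) and an adjusted p of 1.2e-06 in limma, the lowest of all genes.

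Other secreted vascular signals rose with it. Apln, the ligand of the apelin receptor on endothelium, stood at 2.63, 4.31, 5.97, 5.00 and 4.84 FPKM after tunicamycin against 0.65, 0.18, 0.86, 0.54 and 0.46 FPKM in the vehicle. The vehicle libraries were all under 1 FPKM, and the lowest tunicamycin library was library 1. Its log2 change was 1.84 ± 0.17 (limma adjusted p = 0.00039). Adm, which encodes the vasodilator adrenomedullin, averaged 2.87 ± 0.602 FPKM against 0.456 ± 0.259 FPKM (SD, n = 5 each), a log2 change of 1.41 ± 0.14. Angpt2, the angiopoietin that loosens TEK signalling, stood at 3.04, 3.21, 3.62, 3.47 and 3.92 FPKM against 0.82, 0.88, 1.02, 0.81 and 1.34 FPKM. All 5 tunicamycin values of Angpt2 lay well above the highest vehicle value, that of library 5, with a 3.54-fold difference of the means. Vegfa, the main growth factor for endothelium, stood at 139, 112, 122, 117 and 108 FPKM against 60.5, 54.9, 66.1, 84.2 and 94.1 FPKM. The groups of Vegfa came close, since vehicle library 5 lay just under tunicamycin library 5, and the log2 change was 0.75 ± 0.14 (limma adjusted p = 0.034). Pdgfb, through which endothelium recruits pericytes, averaged 4.10 ± 0.363 FPKM against 2.40 ± 0.436 FPKM (SD, n = 5 each). The call of Vegfa was kept without tunicamycin library 3 and without vehicle libraries 4 or 5 and lost without any other single library (limma adjusted p up to 0.107), and that of Pdgfb was lost without tunicamycin library 5 (0.051).

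The receptors of these ligands fell or did not pass the test. Flt1, a VEGF receptor that also acts as a decoy, stood at 9.14, 11.1, 10.8, 10.7 and 9.42 FPKM against 17.1, 14.99, 15.4, 14.8 and 15.8 FPKM. Both groups of Flt1 were narrow and lay well apart, with a log2 change of -0.57 ± 0.06. Tek, the angiopoietin receptor, averaged 1.01 ± 0.174 FPKM against 2.27 ± 0.181 FPKM (SD, n = 5 each). Ramp2, the partner that makes a receptor respond to adrenomedullin, averaged 3.65 ± 1.21 FPKM against 9.14 ± 0.959 FPKM. Kdr, the main signalling receptor for VEGF, overlapped between groups, with a log2 change of -0.29 and an adjusted p of 0.45. Of the 23 tested genes of the VEGF, angiopoietin, endothelin and apelin systems, 5 rose, 3 fell and 15 did not pass. Over all genes, 0.227% were called higher and 0.352% lower. Apln and Adm entered the test through the tunicamycin libraries alone, and 3 risers were left without them. The median log2 change of the 23 genes was -0.11, against 0.01 for all genes.

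Several genes typical of sprouting tip cells rose. Of 19 listed genes in the tables, 14 passed the level minimum, 6 were called higher and 0 lower, and the median log2 change was 0.92. Among all genes, 0.227% were called higher. Apln and Adm passed the minimum through the tunicamycin libraries alone, and without these 2 genes 4 were called and the median was 0.84. Besides the ligands above, Ccn2, a matricellular protein induced by TGF-beta and YAP, stood at 20.2, 28.4, 18.3, 23.6 and 25.3 FPKM against 11.9, 6.65, 11.1, 7.31 and 6.61 FPKM. Igfbp3, which binds insulin-like growth factors, stood at 3.76, 3.85, 3.99, 4.13 and 4.29 FPKM against 1.71, 0.84, 1.11, 2.73 and 1.72 FPKM. Neither gene had overlapping groups, and the 5 tunicamycin values of Igfbp3 differed less among themselves than its vehicle values. Lama4, a laminin of vessel basement membrane, averaged 2.48 ± 0.413 FPKM against 0.900 ± 0.176 FPKM (SD, n = 5 each). Ccn1, a relative of Ccn2, averaged 12.02 FPKM against 4.47 FPKM and narrowly missed the threshold (limma adjusted p = 0.056). The call of Igfbp3 was lost without tunicamycin library 4 or 5 or vehicle library 3 (limma adjusted p up to 0.056).

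Among genes that mark endothelium at large, members went both ways. Of 26 tested identity genes, 3 rose, 7 fell and 16 did not pass, and 6 falls were left without Sox17, which entered the test through the vehicle alone. The shares of all genes called higher and lower were 0.227% and 0.352%. Robo4, a roundabout receptor of endothelium, stood at 3.66, 3.77, 3.57, 4.07 and 4.10 FPKM against 1.36, 0.92, 1.23, 1.67 and 1.45 FPKM, with every tunicamycin library higher. Egfl7, a secreted protein that vessels lay down, averaged 12.2 ± 1.90 FPKM against 6.73 ± 0.812 FPKM, and Cdh5, the endothelial junction cadherin, 3.45 ± 0.441 FPKM against 2.18 ± 0.235 FPKM (SD, n = 5 each). Outside the lists, Adcy4 (an adenylyl cyclase), Tm4sf1 (a tetraspanin-like protein of endothelium) and Anxa3 (an annexin) also rose, by log2 changes of 0.80, 0.90 and 0.67. The calls of Cdh5, Tm4sf1 and Anxa3 were each lost without tunicamycin library 5 and without vehicle library 1, 2 or 3. Cdh5 and Tm4sf1 were also lost without tunicamycin library 4, and Cdh5 and Anxa3 without tunicamycin library 2 (limma adjusted p up to 0.085, 0.100 and 0.086 for the 3 genes).

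In the same endothelial list, the 2 steepest falls were of Ly6 surface antigens. Ly6c1, a surface antigen of capillary endothelium, stood at 2.84, 2.71, 4.93, 3.69 and 2.34 FPKM against 20.7, 21.4, 14.8, 23.2 and 20.4 FPKM. The highest tunicamycin library was a long way under the lowest vehicle library, which was library 3. The log2 change of Ly6c1 was -2.31 ± 0.16 (limma adjusted p = 4.4e-05). Ly6a, the Sca-1 antigen, averaged 3.97 ± 1.2 FPKM against 17.3 ± 3.77 FPKM (SD, n = 5 each). Nos3, the endothelial nitric oxide synthase, averaged 1.42 FPKM against 2.71 FPKM, and Klf2, a transcription factor that responds to blood flow, 2.41 FPKM against 4.44 FPKM. The call of Klf2 was lost without tunicamycin library 1, 2 or 4 or vehicle library 1, 3 or 4 (limma adjusted p up to 0.101). Pecam1, a marker of endothelium in general, overlapped between groups at 3.40 to 5.09 FPKM and 4.2 to 5.26 FPKM. In bulk tissue, fewer cells of a type and less RNA per cell cannot be told apart.

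Some genes of the blood-retina barrier fell and none rose. Of 30 tested barrier genes, 8 were called lower, 0 higher and 22 did not pass, with a median log2 change of -0.16. The share of all genes called lower was 0.352%. Sox17, an endothelial transcription factor, passed the level minimum through the vehicle alone, and 7 calls were left without it. Cldn5, the main claudin of the endothelial tight junction, stood at 4.81, 4.62, 7.29, 7.02 and 5.38 FPKM against 14.9, 14.6, 13.6, 15.7 and 20.9 FPKM. The 2 groups of Cldn5 were far apart, with tunicamycin libraries 3 and 4 nearest to the vehicle, and a log2 change of -1.32 ± 0.14. Slco1c1, a carrier of thyroxine across the barrier, stood at 1.51, 1.41, 1.34, 2.05 and 1.66 FPKM against 3.89, 5.57, 5.32, 4.57 and 5.72 FPKM, again with no overlap. Slco1a4, an organic anion carrier, averaged 5.34 ± 0.576 FPKM against 7.90 ± 0.643 FPKM, and Lsr, a protein of tricellular junctions, 2.58 ± 0.129 FPKM against 4.04 ± 0.485 FPKM (SD, n = 5 each). Apcdd1, an inhibitor of Wnt signalling that is itself a Wnt target in barrier endothelium, averaged 9.33 ± 0.384 FPKM against 12.3 ± 0.485 FPKM. Mfsd2a, the barrier's lipid transporter, had groups that did not overlap, at 1.47 FPKM against 2.71 FPKM, but an adjusted p of 0.069.

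Of the pericyte genes, Rgs5 fell, and 3 more were called lower at low levels. Rgs5, a G protein regulator that marks pericytes, stood at 4.55, 4.50, 6.62, 5.61 and 5.23 FPKM against 16.4, 18.3, 15.8, 16.8 and 20.8 FPKM. The groups of Rgs5 were far apart relative to their width, with a log2 change of -1.57 ± 0.10 (limma adjusted p = 3.5e-05). Higd1b, a mitochondrial protein of pericytes, Notch3, the mural Notch receptor, and Kcnj8, a pericyte potassium channel, were called lower too. Notch3 stood at 0.34, 0.31, 0.43, 0.53 and 0.54 FPKM against 1.54, 1.23, 1.2, 1.61 and 1.44 FPKM. These last 3 genes were under 1 FPKM in all tunicamycin libraries and entered the test through the vehicle. Of the 14 tested pericyte and smooth muscle genes, 4 were called lower and 0 higher, and 1 was called without these 3. The list's median log2 change without these 3 was -0.15, and the share of all genes called lower was 0.352%. Pdgfrb, the receptor by which pericytes respond to PDGF-B, overlapped between groups at 3.12 to 4.21 FPKM and 3.82 to 5.54 FPKM. Mgp, the matrix Gla protein that inhibits calcification, stood at 1.76, 1.68, 10.3, 7.92 and 6.80 FPKM against 22.9, 21.1, 16.4, 39.2 and 32.0 FPKM. Its tunicamycin libraries 1 and 2 were lowest, and the call (limma adjusted p = 0.041) was lost without any single library but tunicamycin library 3 (up to 0.106).

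**Figure D3:**
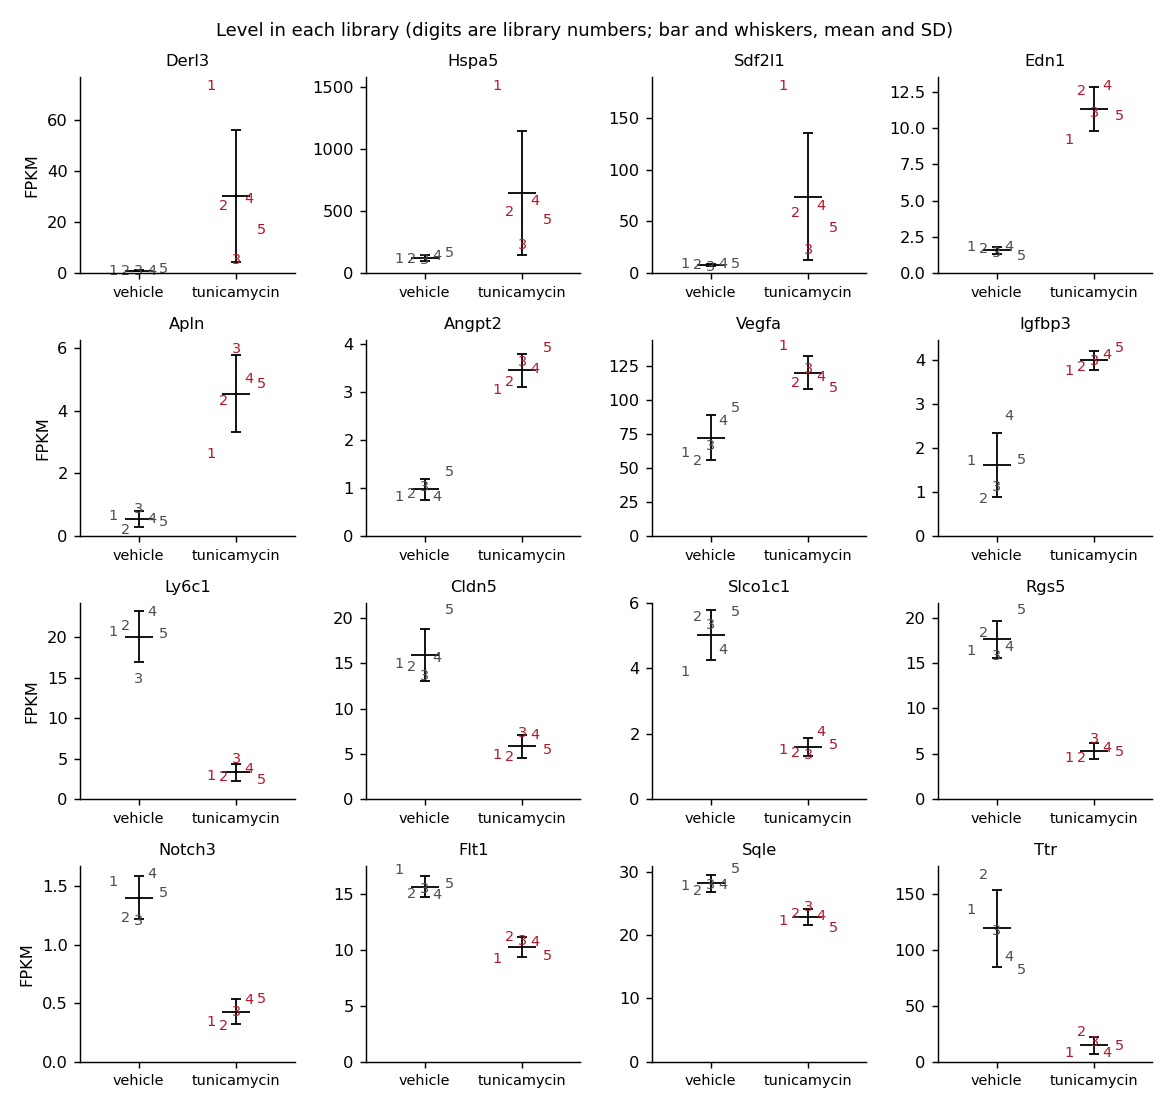
FPKM of 16 genes in each vehicle and tunicamycin library, drawn as library numbers with the mean and SD of each group. The ER genes of the first row spread widely after tunicamycin, from library 3 (lowest) to library 1 (highest), whereas Edn1, Ly6c1, Cldn5 and Rgs5 formed narrow, separate groups.

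The largest rises among called genes were of ER stress genes, with an uneven spread. Derl3, a derlin of ER-associated degradation, stood at 73.4, 26.2, 5.19, 29.1 and 16.9 FPKM in tunicamycin libraries 1 to 5 against 0.74, 0.84, 0.78, 0.92 and 1.48 FPKM in the vehicle. All tunicamycin libraries were above the vehicle, but library 1 was far above library 3. The means differed 31.7-fold, and the log2 change was 3.59 ± 0.50 (SE, limma adjusted p = 0.006). Sdf2l1, a cofactor that keeps ER clients soluble, stood at 181, 57.9, 22.7, 64.6 and 43.8 FPKM against 8.37, 7.65, 6.21, 8.68 and 8.72 FPKM. Hspa5 (BiP), the ER's HSP70 chaperone, stood at 1513, 495, 229, 581 and 427 FPKM against 110.2, 109.9, 106, 138 and 162 FPKM. Both followed the same order of libraries, highest in library 1 and lowest in library 3. The call of Hspa5 (limma adjusted p = 0.035) was lost without any single library but tunicamycin libraries 1 and 3 (up to 0.114). Fkbp11, an ER prolyl isomerase, was the other called chaperone and averaged 6.87 ± 3.08 FPKM against 1.85 ± 0.475 FPKM (SD, n = 5 each).

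Of the 20 tested ER chaperones and co-chaperones, these 3 (Sdf2l1, Hspa5 and Fkbp11) rose and 17 did not pass, yet 13 were above the vehicle in every library, against 2.85% of all genes, and all 20 changes were above 0. The median log2 change was 0.96. Creld2, a secreted disulfide isomerase, stood at 155, 55.4, 26.3, 59.2 and 40.2 FPKM against 13.9, 15.8, 14.5, 15.5 and 16.2 FPKM. Its groups lay apart, and its adjusted p was 0.050, just over the threshold. Manf, a secreted protein that binds BiP, averaged 300 ± 224 FPKM against 80.5 ± 9.03 FPKM (SD, n = 5 each). Hyou1, a large nucleotide exchange factor for BiP, averaged 91.2 FPKM against 25.4 FPKM, and Hsp90b1 (GRP94), the ER's HSP90 chaperone, 444 FPKM against 159 FPKM. With the Ceapin-A7 libraries of the same table type added to the fit to estimate the spread, 14 of the 20 passed, where 2.15% of all genes were called higher. The median SD of the list on the log2 scale was 0.59 in tunicamycin and 0.099 in vehicle libraries. A spread shared by 3 groups may therefore understate that of the tunicamycin libraries.

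The other folding and degradation genes were milder. Among all genes, 0.227% were called higher and 2.85% were above the vehicle in every library. Of 19 disulfide isomerases and ER oxidases, 0 were called and 6 were above the vehicle in every library, led by Pdia4 and Pdia6 with log2 changes of 1.48 and 1.33. Of 29 genes of ER-associated degradation, Derl3 alone was called and 6 were above the vehicle in every library, among them Selenos, Sel1l and Edem1 with log2 changes of 0.85, 0.82 and 0.71. The median of that list was 0.13. Of the 33 proteasome subunits, none was called or separated the groups, which for a list of this size is near the shares of all genes. Their median log2 change was -0.01.

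Genes of entry into the secretory pathway differed by small amounts, and 1 of those listed, Ssr4, rose. Of 35 tested genes of ER translocation and signal peptidase, 12 were above the vehicle in every library and 0 below. The shares of all genes were 2.85% above and 1.17% below. This list's median log2 change was 0.25. Ssr4, a subunit of the translocon-associated complex, stood at 71.2, 60.4, 65.3, 66.0 and 65.1 FPKM against 53.4, 52.3, 52.2, 56.0 and 47.8 FPKM. The difference in Ssr4 was only 1.25-fold, but the groups were narrow enough to pass (limma adjusted p = 0.028). Sec61b, a subunit of the translocon, Sec11c, a signal peptidase subunit, and Serp1, which stabilises membrane proteins at the translocon, had log2 changes of 0.63, 0.60 and 0.84 and adjusted p-values of 0.065, 0.081 and 0.09 in limma. Tmem258, a subunit of the oligosaccharyltransferase, the enzyme that attaches the sugar whose synthesis tunicamycin blocks, stood at 177, 149, 144, 170.5 and 163 FPKM against 123, 126, 120.9, 123 and 114 FPKM. Every tunicamycin library of Tmem258 was above every vehicle library, with a log2 change of 0.40 ± 0.06. The calls of Ssr4 and Tmem258 were lost without tunicamycin library 4 or 5 or vehicle library 1 or 3, and that of Ssr4 also without vehicle library 2 (limma adjusted p up to 0.097 and 0.064). Of the 44 tested genes of the oligosaccharyltransferase and dolichol list, which did not include Tmem258, 7 were above the vehicle in every library, led by Ostc, and 0 passed the test.

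In vesicle traffic between ER and Golgi, Tmed3 and Scfd1 rose. Tmed3, a p24 cargo receptor, stood at 41.2, 31.2, 30.4, 35.5 and 32.5 FPKM against 24.0, 24.8, 22.7, 21.6 and 20.3 FPKM, with no overlap and a log2 change of 0.57 ± 0.08. Scfd1, which guides fusion of ER-derived vesicles, rose by a log2 change of 0.57, with tunicamycin library 1 at 34.0 FPKM and the other 4 at 23.6 to 24.7 FPKM. The call of Scfd1 was kept without tunicamycin library 1 or 3 or vehicle library 2 and lost without any other single library (limma adjusted p up to 0.088). Of 33 COPII coat and cargo receptor genes, 7 were above the vehicle in every library (all genes 2.85%) and 0 below (all genes 1.17%). Of 31 COPI coat and Golgi matrix genes, 6 were above and 0 below. Their median log2 changes were 0.21 and 0.19.

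Genes of the PERK arm had higher means after tunicamycin, but 0 were called. Of 18 tested ATF4-CHOP genes, 0 were called and Trib3, a pseudokinase induced by CHOP, was the 1 gene above the vehicle in every library. Both counts are near the shares of all genes, of which 0.227% were called higher and 2.85% were above the vehicle in every library. All 18 changes were above 0, with a median of 0.79. Ddit3, which encodes CHOP itself, stood at 343, 138, 63.9, 135 and 117 FPKM against 34.7, 45.6, 46.4, 73.0 and 87.3 FPKM. Vehicle libraries 4 and 5 were above tunicamycin library 3, so the groups overlapped (limma adjusted p = 0.16). Chac1, a glutathione-degrading enzyme induced by ATF4, showed the same overlap, with 19.7 and 13.9 FPKM in vehicle libraries 4 and 5 against 8.12 FPKM in tunicamycin library 3. Asns, asparagine synthetase, averaged 89.2 ± 67.1 FPKM against 28.01 ± 8.20 FPKM (SD, n = 5 each). The amino acid synthesis list (18 tested) and the cytosolic aminoacyl-tRNA synthetases (20 tested) had 0 calls, again near the share of all genes. Their median log2 changes were 0.75 and 0.54. With the Ceapin-A7 libraries added to the fit, 3 of 18, 3 of 18 and 2 of 20 genes of these 3 lists were called higher, against 2.15% of all genes. These lists also had a wider median spread in tunicamycin than in vehicle libraries, which the shared spread may understate.

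Promoters of the risers were searched for the ER stress response element, the site through which cleaved ATF6 acts together with NF-Y. The letters searched were CCAAT and CCACG with 9 bases of any kind between them, on both strands, in RefSeq windows of 250 bases before to 50 after each start (GRCm38.p6). Of the 12779 tested genes, 10200 matched a window by gene ID and 19 of them (0.186%) held the element, as did 39 of all 32851 windows (0.119%). It lay in 2 of the 22 called higher genes with a window, 8 of the 293 genes above the vehicle in every library, 0 of the 31 called lower genes and 0 of the 109 genes below it in every library. Of the 19 genes with the element, 18 had a log2 change above 0, with a median of 0.69. The elements of 7 of the 8 genes above the vehicle in every library are printed, because they show the match in genes of the ER lists. They run in the direction of the element, with 5 bases on either side and its fixed letters in capitals. Of the 7, Derl3 and Hspa5 were called. The gene left out was Hnrnpa3, with a log2 change of 0.13 (limma adjusted p = 0.35). Creld2 and Alg12, a mannosyltransferase of the dolichol pathway, are divergent neighbours and share a single copy. The lines give Derl3 at chr10:75893237-75893265, Hspa5 at chr2:34772020-34772048, Creld2 with Alg12 at chr15:88819515-88819543, Pdia6 at chr12:17266486-17266514, Dnajc3 at chr14:118937822-118937850, and Hsp90b1, which held 2 copies, at chr10:86705528-86705556 (near) and chr10:86705633-86705661 (far).
Derl3: gctagCCAATggggaagtcCCACGgtaga
Hspa5: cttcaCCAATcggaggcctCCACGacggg
Creld2 and Alg12: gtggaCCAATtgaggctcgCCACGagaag
Pdia6: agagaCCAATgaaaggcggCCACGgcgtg
Dnajc3: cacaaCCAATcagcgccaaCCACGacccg
Hsp90b1, near: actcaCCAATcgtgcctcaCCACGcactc
Hsp90b1, far: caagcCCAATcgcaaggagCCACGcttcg

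For the 2 called genes with the element, the 250 bases upstream of the start are given on the gene's strand (the plus strand for both), with the fixed letters of the element in capitals. In Hspa5 (chr2:34771840-34772089) the element reads forward and lies 65 to 47 bases before the start, and in Derl3 (chr10:75893148-75893397) it reads backward, 156 to 138 bases before the start.
Hspa5: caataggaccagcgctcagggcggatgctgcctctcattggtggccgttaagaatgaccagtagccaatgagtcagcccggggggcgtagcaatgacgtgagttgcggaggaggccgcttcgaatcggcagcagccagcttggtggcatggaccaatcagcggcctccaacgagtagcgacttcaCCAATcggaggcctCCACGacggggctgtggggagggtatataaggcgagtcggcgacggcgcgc
Derl3: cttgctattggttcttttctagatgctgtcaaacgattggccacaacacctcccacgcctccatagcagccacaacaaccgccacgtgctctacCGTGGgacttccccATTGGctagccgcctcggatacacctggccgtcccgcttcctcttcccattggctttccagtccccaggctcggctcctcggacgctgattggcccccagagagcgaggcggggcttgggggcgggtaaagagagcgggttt

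The same windows were searched for 4 other elements. The XBP1 and ATF6 element TGACGTGG was in 1.02% of tested genes with a window and in 14 of the 293 above the vehicle in every library (4.78%). The C/EBP-ATF element TGATGNAA was in 2.63% and 3.41%, the antioxidant element TGACNNNGC in 16.8% and 19.5%, and the cAMP element TGACGTCA in 3.67% and 3.41%. Over all windows of the table these 4 had shares of 0.676%, 3.97%, 12.4% and 1.79%. A match is a description of the letters and does not show a site in use.

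The ER and vascular changes differed in how evenly the 5 tunicamycin libraries shared them. For the 57 ER and Golgi genes above the vehicle in every library, the median change from the vehicle mean was 0.95, 0.40, 0.20, 0.46 and 0.35 on the log2 scale in libraries 1 to 5. Library 1 held the largest change in 55 of the 57 genes and library 3 the smallest in 47. For the 13 vascular genes above the vehicle in every library, the medians were 1.01, 1.04, 0.98, 1.14 and 1.14. For the 23 vascular genes below it in every library, they were -0.85, -0.77, -0.63, -0.59 and -0.58. Per gene, the smallest of the 5 changes was 0.19 of the largest in the ER and Golgi genes (median) and 0.63 and 0.64 in the higher and lower vascular genes. The vascular genes include Adm, Apln, Higd1b, Kcnj8, Notch3 and Sox17, under 1 FPKM in every library of a group, where the pseudocount limits the change. Choosing genes without overlap also sets a least size for the smallest change, larger where the vehicle spreads more. The median vehicle SD was 0.22 and 0.14 for the higher and lower vascular genes and 0.078 for the ER and Golgi genes. The ratios are thus not on equal terms, and the difference between the gene groups was not tested.

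Lens RNA moved in part with the ER order. The 22 tested lens genes summed to 21264, 10670.4, 83.4, 404 and 8422 FPKM in tunicamycin libraries 1 to 5 and to 7796, 3269, 82.4, 3185 and 98.2 FPKM in vehicle libraries 1 to 5. Library 1 was thus highest and library 3 lowest for both lens and ER genes. None of the 22 passed the test, although all their changes were above 0, with a median of 1.32. Tunicamycin library 4, with 404 FPKM of lens genes, had 29.1 FPKM of Derl3, the second highest value, and vehicle library 1, with 7796 FPKM, had 0.74 FPKM, the lowest. The part of lens RNA in the ER changes was not tested. Without tunicamycin library 1 the median of the ER chaperone list was 0.68.

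**Figure D4:**
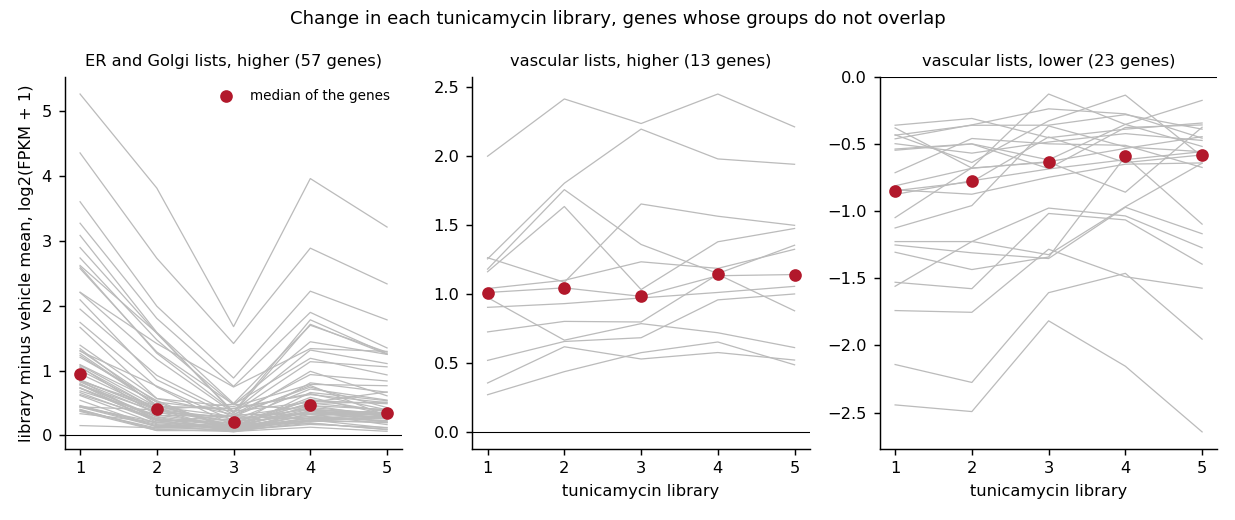
Change of each tunicamycin library from the vehicle mean, in log2(FPKM + 1), for the genes whose groups did not overlap in the ER and Golgi lists (57) and the vascular lists (13 higher, 23 lower). Grey lines join the values of 1 gene and imply no order of libraries, and red points are medians, which span 0.20 to 0.95 for the ER and Golgi genes and 0.98 to 1.14 for the higher vascular genes.

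The largest fall of all genes was of Ttr, transthyretin, a carrier of thyroxine and retinol-binding protein made by the pigment epithelium. Ttr stood at 7.57, 26.3, 17.3, 8.29 and 14.5 FPKM against 136, 167, 117, 93.7 and 81.9 FPKM. The highest tunicamycin library, library 2, was far under the lowest vehicle library, and the log2 change was -3.02 ± 0.31 (limma adjusted p = 0.0007). Stra6, the receptor that takes up retinol from its binding protein, stood at 0.97, 2.40, 1.38, 1.82 and 2.13 FPKM against 6.41, 4.74, 4.96, 4.06 and 3.72 FPKM. Slc16a8, a lactate transporter of the pigment epithelium, averaged 1.15 ± 0.740 FPKM against 4.05 ± 1.31 FPKM (SD, n = 5 each). None of these genes had overlapping groups. The call of Slc16a8 was lost without tunicamycin library 4 or 5 or without any vehicle library but library 4 (limma adjusted p up to 0.126).

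Rpe65 and Tyrp1, defining markers of the pigment epithelium, did not pass the test. Rpe65, the isomerase of the visual cycle, stood at 0.40, 2.63, 1.72, 0.96 and 1.70 FPKM against 11.4, 14.4, 6.90, 3.87 and 3.70 FPKM, without overlap (log2 change -1.78, limma adjusted p = 0.056). Rpe65 averaged 3.87 FPKM in the other vehicle set and 4.48 FPKM after Ceapin-A7, so the vehicle used here was the highest of these 3 groups. Tyrp1, a melanin enzyme, overlapped fully, at 0.79 to 20.7 FPKM and 1.74 to 19.7 FPKM. Of 18 tested genes of pigment epithelium and melanin, 3 were called lower, 0 higher, and 4 were below the vehicle in every library, with a median log2 change of -0.17. Over all genes, 0.352% were called lower and 1.17% were below the vehicle in every library. The list summed to 989 to 1660 FPKM after tunicamycin and 1450 to 1803 FPKM in the vehicle. How much of the epithelium came away with the retina is not in the labels, and its part in these falls was not tested.

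Genes of sterol and fatty acid synthesis were lower by small amounts. Of 34 tested genes, 3 were called lower and 0 higher, 9 were below the vehicle in every library against 1.17% of all genes, and 31 changes were under 0, with a median of -0.26. Sqle, squalene epoxidase, stood at 22.3, 23.3, 24.4, 22.95 and 21.1 FPKM against 27.7, 26.9, 27.8, 27.8 and 30.4 FPKM. The groups of Sqle did not overlap, and the means differed by a log2 change of -0.29 ± 0.05. Fasn, fatty acid synthase, averaged 20.4 ± 0.974 FPKM against 25.9 ± 1.79 FPKM, and Scd2, a desaturase, 97.2 ± 9.24 FPKM against 124 ± 5.09 FPKM (SD, n = 5 each). The calls of Sqle and Fasn were lost without tunicamycin library 2, 4 or 5 or vehicle library 1, 3 or 4, and that of Scd2 without any single library but tunicamycin libraries 1 and 3 (limma adjusted p up to 0.080, 0.084 and 0.138).

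Further called genes lay outside these groups. Cks1b, a regulatory subunit of cyclin-dependent kinases, stood at 8.71, 6.04, 4.74, 5.88 and 7.93 FPKM against 2.34, 2.10, 3.02, 2.24 and 1.64 FPKM, with every tunicamycin library higher. Of the 21 tested genes of the cell cycle list, 0 were called, against 0.579% of all genes. Plpp5, a lipid phosphatase, and Tmem39a, an ER membrane protein, rose by log2 changes of 0.56 and 0.68. Angptl6, a secreted angiopoietin-like protein, averaged 13.3 ± 5.04 FPKM against 5.19 ± 0.664 FPKM (SD, n = 5 each), with library 1 highest and library 3 lowest as in the ER genes, and its call was lost without any single library but these (limma adjusted p up to 0.126). Serpinf1, which encodes the secreted factor PEDF, was also highest in library 1 and lowest in library 3. It stood at 16, 8.73, 3.40, 8.83 and 10.9 FPKM against 1.71 to 3.39 FPKM, without a call (limma adjusted p = 0.069). Among the falls, Pltp, the phospholipid transfer protein, stood at 3.29, 4.55, 5.27, 8.54 and 6.64 FPKM against 21.7, 23.5, 22.8, 17.98 and 21.0 FPKM, well apart. Mal, a raft protein of polarised cells, Pllp, plasmolipin, and Slc6a20a, a proline transporter, were called lower at levels under 1 FPKM in all tunicamycin libraries.

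Further falls were of Itm2a and Spock2 of the barrier list, of Esam of the endothelial list, and of genes in no list. Itm2a, a membrane protein found in endothelium of the barrier, stood at 3.68, 4.90, 4.51, 6.06 and 7.84 FPKM against 12.4, 14.7, 14.5, 9.17 and 13.96 FPKM. Tunicamycin library 5 and vehicle library 4 came nearest to each other, without overlap. Esam, an adhesion molecule of endothelial junctions, stood at 7.71, 8.36, 9.17, 8.91 and 7.74 FPKM against 10.8, 10.75, 11.1, 11.3 and 10.9 FPKM, 2 narrow groups with a log2 change of -0.36 ± 0.06. Pglyrp1, a peptidoglycan recognition protein, was under 1 FPKM in all tunicamycin libraries and at 1.94 to 4.77 FPKM in the vehicle. Gja4, the gap junction protein connexin 37, averaged 0.440 FPKM against 1.51 FPKM, and Ltbp4, which binds latent TGF-beta, 1.84 FPKM against 3.29 FPKM. Spock2, a proteoglycan of the neural matrix and the most abundant of these genes, stood at 86.4, 91.04, 91.1, 96.2 and 89.2 FPKM against 113, 106, 118, 115 and 134 FPKM. The call of Gja4 was lost without tunicamycin library 2 or vehicle library 1 or 3, and that of Spock2 without tunicamycin library 2 or 5 or vehicle library 1, 3 or 4 (limma adjusted p up to 0.054 and 0.086).

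Lists next to these themes held few calls of their own. Of the 22 hypoxia genes tested, Vegfa and Adm, named above, were the 2 calls, and the median log2 change was 0.14. Adm entered the test through the tunicamycin libraries alone, and 1 call was left without it. The share of all genes called higher was 0.227%. Of 40 collagen, laminin and matrix genes, Lama4 rose, Mgp fell and 38 did not pass. Of the 23 TGF-beta and BMP targets, Ccn2 was the 1 call. The 25 NRF2 genes, 23 cytosolic heat shock genes, 30 lysosomal genes, 37 autophagy genes and 34 respiratory chain genes had 0 calls, with medians from -0.11 to 0.03. The share called over all genes was 0.579%, and 0 calls in lists of these sizes is near it. Among 22 amino acid transporters, Slc6a20a fell and 0 rose, where 0.352% of all genes were called lower. Slc6a20a entered the test through the vehicle alone, and 0 calls were left without it. Slc7a5, the large neutral amino acid carrier and an ATF4 target, averaged 86.2 FPKM against 40.9 FPKM with a limma adjusted p of 0.46. The 32 interferon and antigen presentation genes and the 17 cytokine and chemokine genes also had 0 calls, with medians of -0.13 and 0.00.

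Neuronal and macroglial lists held no call. Among the 27 rod phototransduction, 15 cone phototransduction, 24 bipolar, 22 amacrine, 12 horizontal and 27 ganglion cell genes tested, 0 passed, and the medians lay between -0.09 and 0.05. Of those genes, Nyx, a synaptic protein of ON bipolar cells, was the 1 gene whose groups did not overlap, at 6.87 FPKM against 8.23 FPKM. The 27 Muller glia and 27 reactive gliosis genes also had 0 calls. Gfap, the intermediate filament of reactive glia, stood at 8.40, 19.2, 39.6, 8.85 and 17.6 FPKM against 31.3, 29.8, 17.2, 40.7 and 41.7 FPKM, with overlap. The 22 BCL2 family and death receptor genes had 0 calls. The share called over all genes was 0.579%, and 1.17% were below the vehicle in every library. Counts of 0 or 1 in lists of these sizes are near those shares. At these group sizes, a p above the threshold does not show that a gene was unchanged.

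**Figure D5:**
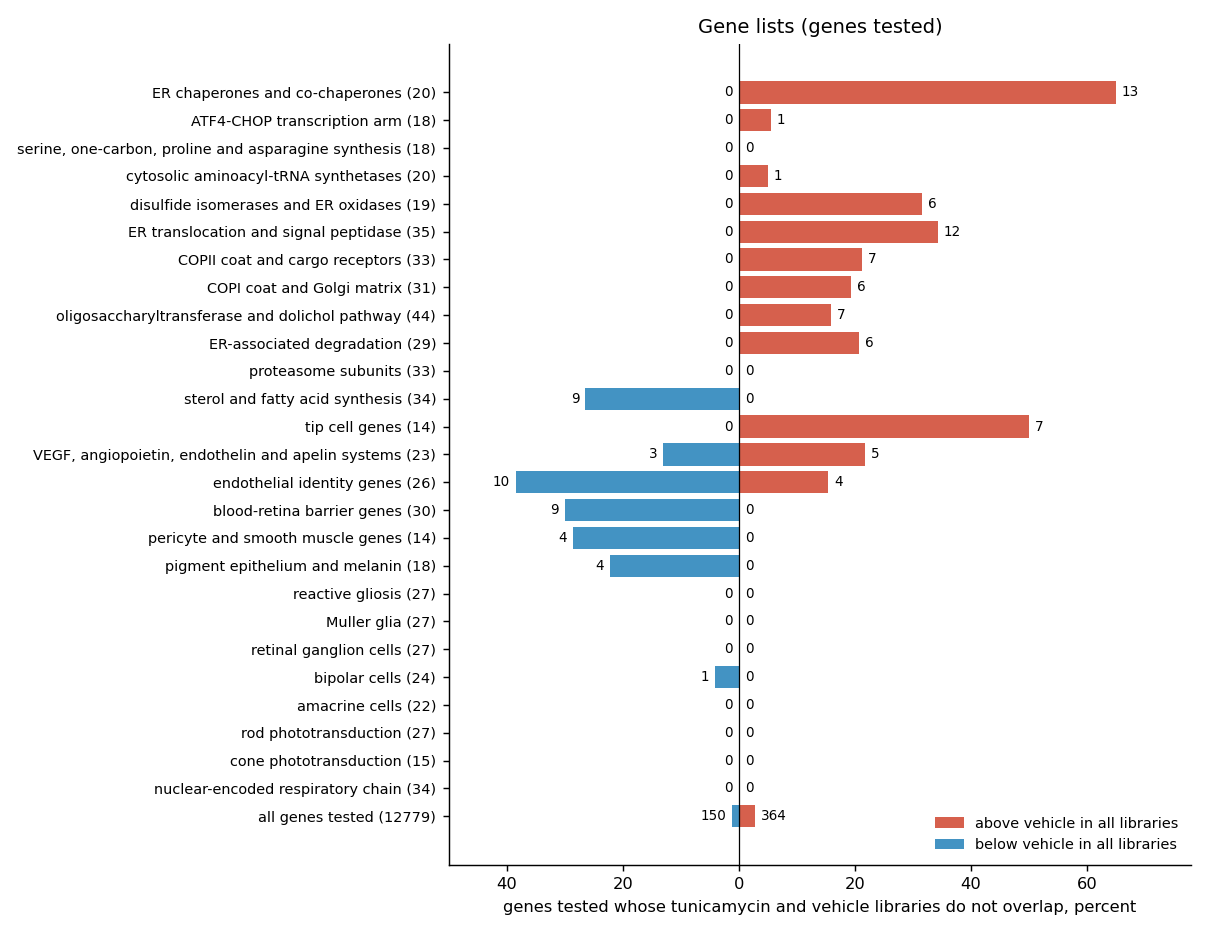
Percent of the tested genes of each list whose 5 tunicamycin values were all above (red) or all below (blue) the 5 vehicle values, with counts at the bars and the number tested in brackets. ER chaperones (13 of 20) and tip cell genes (7 of 14) have the longest red bars, endothelial identity genes (10 of 26) the longest blue bar, and all genes tested are at the bottom. The bars include genes under 1 FPKM in every library of 1 group. Without such genes the tip cell count is 5 and the endothelial count 9.

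The same tunicamycin libraries were set against Ceapin-A7, the ATF6 inhibitor injected at the same dose and tabulated over the same genes. Vehicle libraries entered this fit of 3 groups only through the estimate of the spread, and 690 genes (5.40%) passed, 495 higher (3.87%) and 195 lower (1.53%) after tunicamycin, where the same fit called 386 genes (3.02%) between tunicamycin and the vehicle. Edn1 was 1.45 FPKM after Ceapin-A7, and the tunicamycin minus Ceapin-A7 difference was 2.33 on the log2 scale. The same difference was -2.34 for Ly6c1, -1.73 for Rgs5, -1.21 for Cldn5, 3.75 for Derl3 and 2.2 for Hspa5, each past the threshold (limma adjusted p at most 0.0019). For Derl3 and Hspa5, which spread widely after tunicamycin, the spread shared by 3 groups may understate that of the tunicamycin libraries. Stra6, at 4.15 FPKM after Ceapin-A7, passed with a difference of -0.93. Slc16a8 and Rpe65 did not pass, with differences of -0.78 and -1.07 and an adjusted p of 0.11 for both. Of the lipid genes, Fasn and Sqle passed with differences of -0.22 and -0.17, and Scd2 did not, at -0.17 (limma adjusted p = 0.11).

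The imbalance of Y-linked genes was set beside the calls in 3 ways. Against vehicle library 5 alone, which holds Ddx3y, the 29 called higher genes had a median log2 difference of 0.72, and against the other 4 vehicle libraries 0.90. For the 45 called lower genes the medians were -0.77 and -0.70. All 74 genes were called with library 5 in the vehicle and had groups that did not overlap. Their direction against library 5 was thus fixed in advance, and these medians describe size only. With the Ddx3y level as a covariate 9 genes passed (0.0704%), among them Edn1, Ly6c1, Rgs5, Cldn5, Slco1c1 and Angpt2, and 0 genes of the ER and Golgi lists. The median ratio of a called gene's change with the covariate to that without was 0.98. Within the vehicle the covariate rests on library 5 alone, and the ratio covers genes already called with that library. Against the other vehicle set, in which all libraries held Ddx3y, the log2 changes were 2.32 for Edn1, -2.14 for Ly6c1, -1.70 for Rgs5, 3.73 for Derl3, 1.78 for Hspa5 and -2.32 for Ttr. That set comes from a table with a partly different gene list, and 6722 genes (52.7%) passed against it. Why so many passed was not tested, so single calls there are not read as tunicamycin changes. Of the called genes named above, 4 did not pass against that set. Their log2 changes were -0.04 for Klf2, -0.52 for Slc16a8, -0.16 for Lsr and -0.14 for Sqle (limma adjusted p of 0.74, 0.073, 0.068 and 0.057).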

How the data were processed

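Retinal RNA was made into stranded mRNA libraries for DNBSEQ sequencing, per the labels' protocols. The authors deposited 1 table of FPKM values, rounded to 2 decimals, for each group. Per the submitters' processing notes, tools included RSEM 1.2.18, HISAT2 2.0.4 and DESeq2 1.4.5 with build GRCm39, and neither order nor role is given. FPKM is relative to each library's total, so a rise of abundant genes lowers the others, and it keeps no counts. Depth was therefore estimated from the spacing of low values in genes with 1 transcript. All columns were matched to samples by name.

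Values were tested as log2(FPKM + 1), which understates changes of low genes, with limma 3.58.1 in R 4.3.3 (trended variance, two-sided, Benjamini-Hochberg over 12779 genes). A gene was called at an adjusted p under 0.05. The fit was tested on simulated data. The difference from Ceapin-A7 came from a fit with 3 groups. Members, 70 gene lists and tests were chosen with earlier results of these data known. Named genes were called genes of at least 3 FPKM in the higher group (the 25 largest changes and 15 largest moderated t per direction), up to 4 called or the 2 highest members of a list, and cell markers. Called genes of lower level and further uncalled ER, pigment epithelium, vascular and lipid genes were named after their values were seen. Alternatives covered scaling, pseudocount, level filter, spread estimate, control set, covariates and left-out libraries. Python 3.11.15, pandas 2.3.3 and numpy 2.4.6 were used for counts, and matplotlib 3.10.9 for figures. Some genes are not reported here.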

Additional observations from a re-analysis of the deposited data

Results flagged for a closer look

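Within groups of 5 libraries, single libraries stood apart from the other 4 by a wide gap in 12 of 230 gene and group pairs examined. Chance marks about 1 in 20 such groups. Tunicamycin library 1 stood apart in 3 pairs, with Scfd1 at 34.0 FPKM, Nucb2 at 35.9 FPKM and Selenos at 104 FPKM, each on the high side. Nucb2 encodes a calcium-binding Golgi protein and Selenos a selenoprotein of ER-associated degradation. A transcript with a predicted name, C130074G19Rik, was high in tunicamycin library 4 at 1.32 FPKM.

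In the vehicle, library 5 was high for Sqle at 30.4 FPKM and for Derl3 at 1.48 FPKM and low for Ostc, an oligosaccharyltransferase subunit, at 47.0 FPKM. Library 3 was low for Ly6c1 at 14.8 FPKM and for Zcchc12, a zinc finger protein of neurons, at 5.11 FPKM. Library 1 was high for Ramp2 at 10.8 FPKM and for Scd2 at 133 FPKM, and library 2 was low for Nos3 at 2.27 FPKM.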

How the results depend on the processing

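Of the 74 calls, 48 held in each fit that left out 1 library and 5 in all 24 alternatives. Angpt2 and Srarp held in each alternative but the stricter level minimum, which left them untested. Totals without 1 library ran from 51 to 246 (higher genes 16 to 165, lower genes 33 to 81). A spread shared with the Ceapin-A7 libraries gave 386 calls (275 higher, 111 lower), and one shared by all 5 groups 1124 (772 and 352). The other vehicle set as control gave 6722 (3943 and 2779). A minimum of 1 FPKM in all 10 libraries gave 46 (25 lower), from fewer genes tested, and the Ddx3y covariate 9 (2 and 7). The cause of the other shifts was not tested. Other scalings, pseudocounts, variance settings, no level filter and leaving out vehicle libraries 4 and 5 together gave 74 to 93. With the replicate number as a block there were 45 (16 and 29), but same-numbered libraries deviated together in 3 of 5 pairs and oppositely in 2 (correlations of 0.29, 0.23, 0.40, -0.31 and -0.43) and not every library correlated best with its own number, so the numbers do not pair the libraries. Against the other vehicle set the sign turned for Pcdhb2 (0.51), Abhd2 (0.014) and Msmo1, an uncalled sterol demethylase (0.17). Of 1680 list medians recomputed, 34 moved by over 1 SD between libraries. FPKM without counts leaves the precision of low genes unknown. Collection time and group cannot be told apart. Y-linked expression differed between the groups in 4 of 5 vehicle libraries, so sex and group cannot be told apart but for vehicle library 5.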

Other observations

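Some genes outside the ER lists separated the groups without passing the test, in the library order of the ER genes. Zcchc12, a zinc finger protein of neurons, stood at 36.0, 16.9, 7.42, 23.1 and 16.7 FPKM in tunicamycin libraries 1 to 5 against 5.11 to 6.05 FPKM in the vehicle, with a log2 change of 1.48 (limma adjusted p = 0.06). Eif1, a factor that helps choose the start codon, stood at 667, 407, 354, 409 and 373 FPKM against 320.2 to 338 FPKM, with a log2 change of 0.38 (limma adjusted p = 0.26). For both genes library 1 was highest and library 3 lowest, and library 3 was still above every vehicle library. These 2 genes were chosen after their values were seen.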
